A study of Mus musculus with 62 samples.

Results

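The 10 genes described here encode redox defenses of the cell: Nqo1, Hmox1, Gclc, Gclm, Txnrd1, Srxn1 and Slc7a11, which are known targets of the transcription factor Nrf2, and Gpx3, Cat and Sod2, which encode antioxidant enzymes. They were taken by name from the 47643 genes listed in a table of RNA-seq values, and all 10 were found in it. The values come from the diaphragm, the main muscle of breathing, of 62 female mice, and each library came from 1 mouse. The methods give 2 months as the age at purchase, so mice of later weeks were older at collection. Cachectic mice were injected with cells of a patient-derived melanoma xenograft that causes wasting of the host, non-cachectic mice with melanoma cells that do not, and control mice were mock injected with PBS. Muscle was collected 2, 4, 6 and 8 weeks later, with 7 cachectic mice at 8 weeks and 5 mice in each of the other 11 conditions. The sample labels give the strain as C57BL6/J, whereas the design text names NCI Ath/nude mice, a strain without a working thymus, and all 3 groups share whichever strain it was. Each tumor group stands for 1 xenograft line, so a property of that line and cachexia cannot be told apart.

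Nrf2, the product of Nfe2l2, is held in the cytoplasm and marked for degradation by Keap1 until oxidants or electrophiles modify Keap1. Nrf2 then enters the nucleus, pairs with small Maf proteins and binds antioxidant response elements, while Bach1 can occupy the same elements as a repressor and is released by heme. Working muscle makes superoxide and hydrogen peroxide in its mitochondria and at its membranes, and manganese superoxide dismutase (Sod2), catalase (Cat) and glutathione peroxidases remove them, many of them also under the control of factors other than Nrf2.

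The core of the antioxidant response element, TGACNNNGC read on both strands, was looked for in RefSeq promoters of the GRCm38.p6 assembly, each 300 bases long from 250 bases before to 50 bases after a transcription start. The promoter table held 8 of the 10 genes, without Hmox1 and Gclc, in 10 promoters, since Txnrd1 had 3. The core occurred in 3 of these 10 promoters (30%), those of Gclm, Srxn1 and the 2nd promoter of Txnrd1, and in 4071 of the 32851 promoters of all genes (12.4%). Counted by gene, it was held by 3 of the 8 genes (37.5%), by 7 of 23 other known Nrf2 target genes with a promoter in the table (30.4%) and by 3781 of all 27025 genes (14%). A match to these letters is a description and not a measured binding site, and elements farther from the start were not searched. The stretches around the matches of Gclm and Txnrd1 are shown as the 2 matches among these genes that lie wholly before a start. The core stands in capitals, as its reverse complement, and every stretch reads along the gene's strand.
Gclm, GRCm38.p6 chr3:122245398-122245456, plus strand, in no annotated gene, with the core 134 bases before the start: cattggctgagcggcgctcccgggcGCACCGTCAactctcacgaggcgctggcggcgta
Txnrd1, GRCm38.p6 chr10:82859089-82859147, plus strand, in an intron of longer Txnrd1 transcripts, with the core 92 bases before the start: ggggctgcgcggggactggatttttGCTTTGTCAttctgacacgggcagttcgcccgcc

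TPM values (transcripts per 1000000) correct for the length of a gene and sum to 1000000 in each library, so levels can be compared between genes. In the 15 control mice of 4 to 8 weeks, Gpx3, the secreted glutathione peroxidase, had the highest level, with a median of 389 TPM (300.5 to 695). Sod2 followed at 256 TPM (210 to 296) and Cat at 202 TPM (171 to 230), and their ranges overlapped. Nqo1 at 55.9 TPM (42.7 to 71.7) and Txnrd1 at 51.2 TPM (43.7 to 70.7) could not be ordered, since their ranges overlapped. Srxn1 lay at 20.6 TPM (16.2 to 32.0), apart from all others. Gclc at 9.37 TPM (7.29 to 10.1), Hmox1 at 8.81 TPM (6.28 to 10.3) and Gclm at 5.42 TPM (3.92 to 6.61) formed the low end, where Hmox1 overlapped with both neighbours and Gclc did not overlap with Gclm. Slc7a11 (chr3:49892526-50443614, minus strand), the cystine transporter that feeds glutathione synthesis, was close to absent, with at most 0.135 TPM in any of the 62 mice and a listed value of 0 in 5 of them. It never reached 1 TPM, so it entered no test, and 9 of the 10 genes were tested. All 10 are protein-coding, and the positions given below are those of the whole gene on GRCm38.

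Values were compared as log2(TPM + 1) with limma, which fitted a mean for each condition over the 62 mice, and p-values were adjusted over the 13578 genes that reached 1 TPM in 5 or more mice. A gene is called when its adjusted p is under 0.05. A fold change on this scale understates the change of genes with low TPM, such as Gclm at a control median of 5.42 TPM. In 4 libraries only 15069 to 16389 genes were above 0 and mitochondrial genes took 54.4 to 61.5% of the TPM, against 17909 genes or more and at most 50.1% in the other 58. Of these 4, 3 were from 2 weeks (replicates 3 and 4 of the cachectic group and replicate 5 of the non-cachectic group), and replicate 3 of the cachectic group was the only such library at 8 weeks. Counts of called genes among the 9 at 4 to 8 weeks, and the list counts below that moved, are therefore given with and without these 4. The summed level of 10 skeletal muscle markers ran from 39277 to 96402 TPM, with none at 0. In whole muscle, fewer cells of a type and less RNA per cell cannot be told apart.

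**Figure D1:**
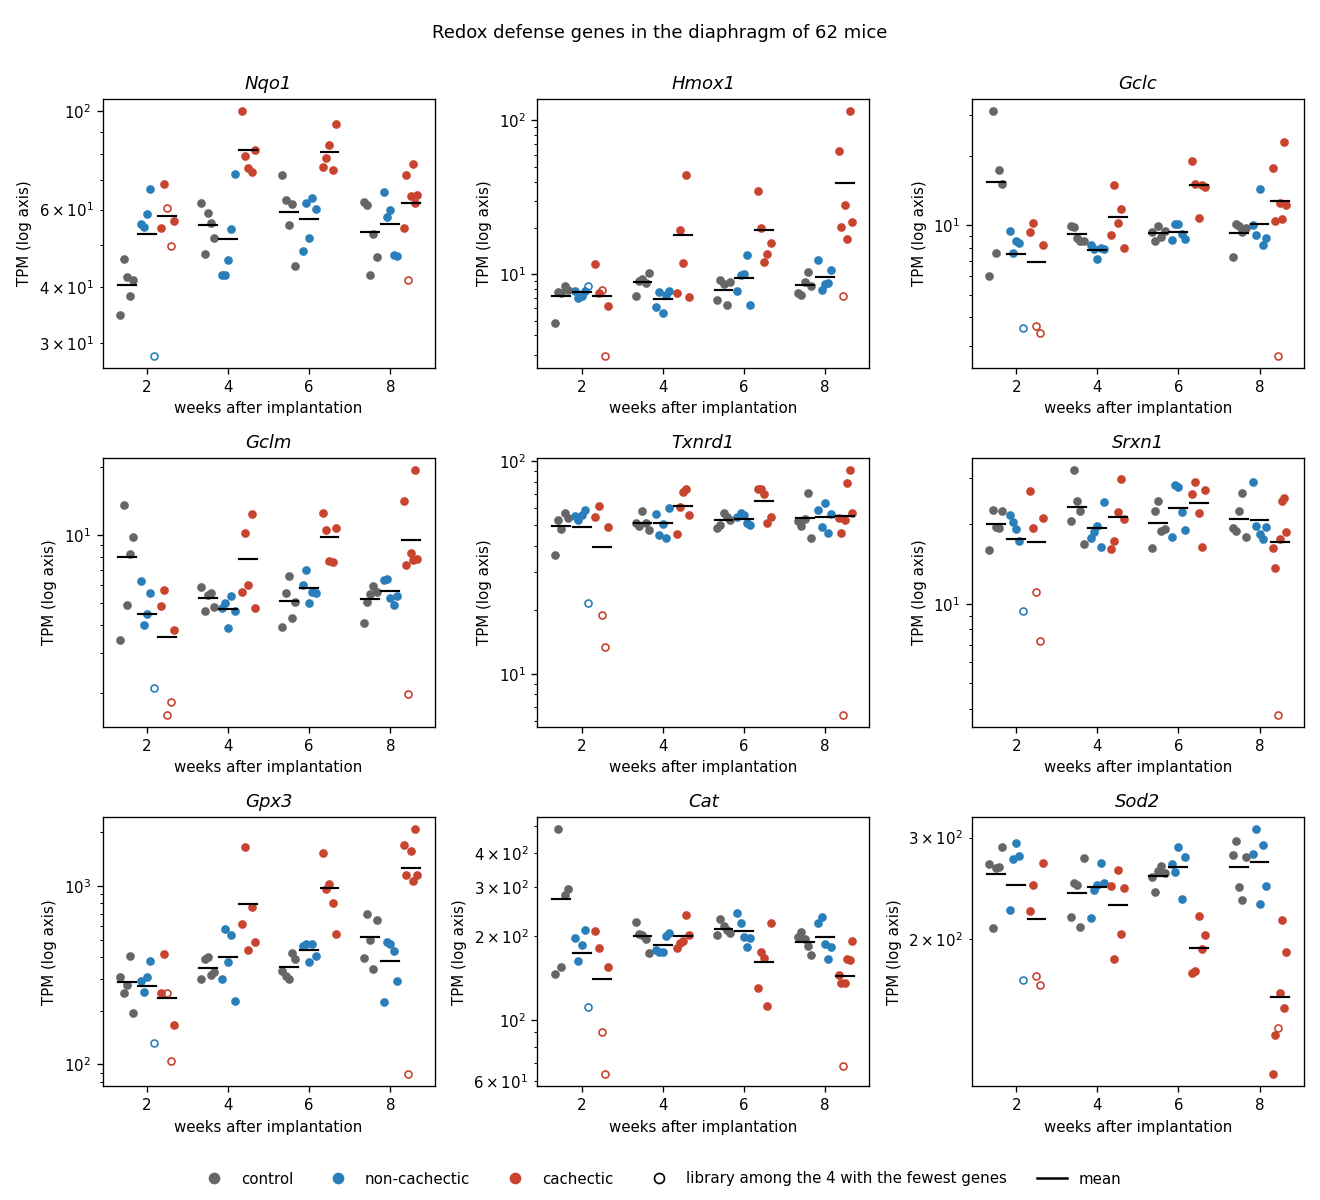
TPM on log axes of the 9 tested genes in each of the 62 mice against weeks after implantation, with the mean of each condition as a bar. Open circles are the 4 libraries with the fewest genes, which hold the lowest Txnrd1 (6.41 TPM) and Gpx3 (88.4 TPM) of all mice, while Hmox1 and Gpx3 of the other cachectic mice at 8 weeks stand above control mice and Sod2 below them.

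In late cachexia the gene of heme oxygenase 1 rose and that of mitochondrial superoxide dismutase fell. At 8 weeks, Hmox1 and Sod2 were the 2 of 9 tested genes called between cachectic and control mice, Hmox1 higher and Sod2 lower, and 6.65% of all tested genes were called higher and 8.12% lower in that comparison. Without the 4 libraries with few genes, 5 of the 9 were called higher (Gclc, Gclm, Gpx3, Hmox1 and Nqo1) and 1 lower (Sod2), where 22.2% of all tested genes were called higher and 12.4% lower. The median log2 fold change of the 9 genes was 0.21, against -0.09 over all tested genes, and 0.30 against 0.06 without the 4 libraries.

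Hmox1 (chr8:75093621-75100589, plus strand) encodes the enzyme that opens heme into biliverdin, carbon monoxide and iron. In control mice at 8 weeks it measured 7.5, 7.35, 8.94, 10.3 and 8.40 TPM, and in non-cachectic mice 12.4, 7.91, 8.62, 8.76 and 10.7 TPM. In the 7 cachectic mice it ran from 7.25 TPM over a median of 22 to 115 TPM. Replicate 3, at 7.25 TPM, lay within the control range, and the other 6 cachectic mice, at 17.0 TPM or more, lay above every control and non-cachectic mouse of any week. The mean was 39.0 ± 37.9 TPM (SD, n = 7), 4.59 times the control mean of 8.49 ± 1.2 TPM (SD, n = 5), and 5.21 times without replicate 3. The log2 fold change was 1.6 ± 0.34 (SE) against control mice (adjusted p = 0.000617) and 1.44 ± 0.34 against non-cachectic mice (adjusted p = 0.00234). Both calls held in all 12 fits that left out 1 mouse of the comparison. Neither held when limma was fitted to the 12 mice compared alone (adjusted p = 0.118 and 0.188) or in Dunn's test (adjusted p = 0.158 and 0.457).

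Hmox1 was already higher in some cachectic mice earlier. At 4 weeks the cachectic mice measured 7.56, 19.5, 11.8, 44.2 and 7.13 TPM and control mice 7.26, 9.03, 9.27, 8.81 and 10.2 TPM, so replicates 2, 3 and 4 lay above the control range, replicate 1 within it and replicate 5 below it. At 6 weeks the cachectic mice measured 35.0, 19.9, 12.1, 13.6 and 16 TPM, all above the control mice at 6.84, 9.14, 8.60, 6.28 and 8.85 TPM. The log2 fold change was 0.63 ± 0.37 at 4 weeks (adjusted p = 1.00) and 1.09 ± 0.37 at 6 weeks (adjusted p = 0.0626). The value at 6 weeks was called without the 4 libraries (adjusted p = 0.00969) and without cachectic replicate 3 of that week (adjusted p = 0.0496). The change of this difference from 4 to 8 weeks was 0.97 and did not pass its test (95% CI -0.05 to 1.98, adjusted p = 0.692).

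Macrophages are rich in heme oxygenase 1, and part of their markers were also higher at 8 weeks. Of 8 macrophage markers 4 were called higher in cachectic than in control mice at 8 weeks (Mrc1, C1qa, C1qb and C1qc) and 0 lower. In that comparison 6.65% of all tested genes were called higher and 8.12% lower. The summed level of the 8 markers ran from 289.5 to 1199 TPM (median 789) against 302 to 606 TPM (median 412) in control mice, with no marker at 0. In cachectic replicates 1 to 7 of that week, Hmox1 measured 63.0, 20.2, 7.25, 28.2, 17.05, 115 and 21.95 TPM. In the same order, the mean of the macrophage markers was 4.27, 5.86, 5.17, 4.96, 5.698, 5.56 and 5.15 on the log2(TPM + 1) scale. The relation between these values was not tested. At 4 weeks, when Hmox1 was also not called, limma called 0 of the 8 markers. Of these markers, 0 had an unadjusted p under 0.05 and Dunn's test called 0. Their median log2 fold change was -0.10. Cd163, the macrophage receptor for hemoglobin bound to haptoglobin, rose from 4.79 ± 1.55 (SD, n = 5) to 16.6 ± 7.09 TPM (SD, n = 7), with a log2 fold change of 1.49 (adjusted p = 7.76e-05). Erythroid markers, as a sign of blood in the tissue, spread from 538 to 41257 TPM in cachectic mice at 8 weeks and from 2554 to 10570 TPM in control mice, and limma called 0 of the 5 tested, with 0 at an unadjusted p under 0.05 and 0 by Dunn's test. The part of these cells in the Hmox1 result was not tested.

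Sod2 (chr17:13006846-13040063, plus strand) encodes the superoxide dismutase of the mitochondrial matrix, and it changed the other way. At 6 weeks the cachectic mice measured 174, 176, 219, 192 and 203 TPM, all below the control mice at 256, 241, 263, 268 and 260 TPM and the non-cachectic mice at 269.7, 262, 289, 235 and 277 TPM. At 8 weeks the 7 cachectic mice ran from 117 TPM over a median of 152 to 216 TPM, all below the control mice at 280.3, 296, 246, 234 and 278 TPM and the non-cachectic mice, of which the lowest had 230.0 TPM. The cachectic mice did not overlap with either of the other groups in these weeks, and replicate 3 at 8 weeks, at 140.1 TPM, lay among the other cachectic mice. The log2 fold change against control mice was -0.42 ± 0.13 at 6 weeks (adjusted p = 0.0417) and -0.77 ± 0.12 at 8 weeks (adjusted p = 1.005e-05), where the cachectic mean was 0.595 of the control mean. Against non-cachectic mice it was -0.47 at 6 weeks (adjusted p = 0.0233) and -0.79 at 8 weeks (adjusted p = 7.50e-06).

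The Sod2 calls at 8 weeks held in all 12 fits without 1 mouse and with each other setting tried, Dunn's test with adjusted p included. The call at 6 weeks against control mice held in 2 of 10 fits without 1 mouse, although the log2 fold change stayed between -0.47 and -0.39. Against non-cachectic mice the 6-week call held in 5 of 10 such fits, with adjusted p up to 0.0892. At 4 weeks Sod2 measured 247, 185, 263, 204 and 245 TPM in cachectic mice, 3 of them within and 2 below the control range of 210 to 276 TPM, with a log2 fold change of -0.08 (95% CI -0.34 to 0.19) that was not called (adjusted p = 1.00). The cachectic minus control difference of Sod2 changed by -0.69 (95% CI -1.05 to -0.33) from 4 to 8 weeks, with an unadjusted p of 0.000367 and an adjusted p of 0.182, and of 0.0166 without the 4 libraries. That was the only gene of the 9 called in any change of the difference in that fit, where 1.38% of all tested genes were called.

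Gpx3 (chr11:54902453-54910377, plus strand), the secreted selenium-dependent glutathione peroxidase, was above the control range in every cachectic mouse at 4 and 6 weeks and in all but 1 at 8 weeks. At 4 weeks the cachectic mice measured 615, 1646, 439, 765 and 483 TPM against 300.5, 389, 399, 318 and 328 TPM in control mice, without overlap. At 6 weeks they measured 1534, 965, 1024, 807 and 536 TPM, all above the control mice at 333, 315, 303, 421 and 389 TPM. At 8 weeks they ran from 88.4 TPM over a median of 1158 to 2075 TPM, and control mice measured 396, 695, 499, 345 and 643 TPM.

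Replicate 3, with few genes, was the cachectic mouse at 88.4 TPM, and the other 6, at 1062 TPM or more, lay above every control and non-cachectic mouse. With it, the log2 fold change against control mice at 8 weeks was 0.93 ± 0.41 and not called (adjusted p = 0.119), and without the 4 libraries it was 1.5 ± 0.26 (adjusted p = 1.38e-05). Leaving out replicate 3 alone gave an adjusted p of 9.36e-05. At 6 weeks Gpx3 was called (1.39 ± 0.44, adjusted p = 0.0409), 2.76 times the control mean, but the adjusted p stayed under 0.05 in only 1 of 10 fits without 1 mouse, while the log2 fold change ranged from 1.21 to 1.59. Against non-cachectic mice, the log2 fold change of 1.37 ± 0.41 at 8 weeks was called (adjusted p = 0.0159), in 11 of the 12 fits without 1 mouse, the exception being the fit without non-cachectic replicate 1 (adjusted p = 0.0668). Fitted to the 12 mice alone it had an adjusted p of 0.362. At 4 weeks Gpx3 was not called (1.01 ± 0.44, adjusted p = 0.795), and was called without the 4 libraries (adjusted p = 0.0416), none of which is a 4-week library.

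Markers of other cells of muscle were also counted at 8 weeks, when Gpx3 and Hmox1 were high and Sod2 low. In cachectic against control mice 6.65% of all tested genes were called higher and 8.12% lower, and 22.2% and 12.4% without the 4 libraries. A single call in a list of 6 or 10 markers says little beside such shares. Of 6 fibroblast markers 1 was called higher and 3 lower in cachectic than in control mice (1 and 4 without the 4 libraries), with sums of 720.6 to 1801 TPM against 601 to 1167 TPM. Of 6 adipocyte markers 1 was called higher and 0 lower, with sums of 667.9 to 2260 TPM against 567 to 912 TPM. Of 4 tested neutrophil markers 2 were called higher and 0 lower (4 and 0 without the 4 libraries), with sums over 8 markers of 8.98 to 74.7 TPM against 4.33 to 15.3 TPM. None of these markers was at 0 in every mouse of either group, and of the 10 skeletal muscle markers 0 were called higher and 1 lower, with a median log2 fold change of 0.03. The fit without the 4 libraries called 4 muscle markers higher and 1 lower, with a median of 0.28. The part of these cells in the values of Gpx3, Hmox1 and Sod2 was not tested.

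Catalase (Cat, chr2:103453849-103485160, minus strand), which splits hydrogen peroxide in peroxisomes, had lower values in most cachectic mice at the late weeks, without a call. At 6 weeks the cachectic mice measured 130, 175, 167, 112 and 222 TPM against 202, 230.0, 218, 210 and 206 TPM in control mice, and 4 of the 5 lay below the control range. The exception, replicate 5, had a mean of 8.02 over 10 liver markers on the log2(TPM + 1) scale, against a median of 1.86 over all mice. The part of liver in its value was not tested. At 8 weeks they ran from 68.4 TPM over a median of 145 to 192 TPM, against 171 to 208 TPM in control mice, and 6 of the 7 lay below that range. The log2 fold changes of -0.44 ± 0.24 at 6 weeks (adjusted p = 0.298) and -0.46 ± 0.22 at 8 weeks (adjusted p = 0.155) were not called. At 6 weeks Cat was called without the 4 libraries (adjusted p = 0.0467) and with median-ratio scaling (-0.63, adjusted p = 0.0107).

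At 6 weeks 2 of the 9 genes were called between cachectic and control mice, Gpx3 higher and Sod2 lower, where 5.62% of all tested genes were called higher and 1.17% lower. Without the 4 libraries, none of which is a 6-week library, the log2 fold changes at 6 weeks were the same and their SE smaller (0.28 against 0.44 for Gpx3). That fit called 5 higher (Gclc, Gclm, Gpx3, Hmox1 and Nqo1) and 2 lower (Cat and Sod2), where 26.9% of all tested genes were called higher and 4.29% lower. Between cachectic and non-cachectic mice 2 of the 9 were called, Nqo1 higher (0.495 ± 0.16, adjusted p = 0.0483) and Sod2 lower, beside 4.28% and 1.57% of all tested genes. Without the 4 libraries those counts were 5 and 1, beside 22.1% and 5.18%. At 8 weeks 3 of the 9 were called between cachectic and non-cachectic mice, Hmox1 and Gpx3 higher and Sod2 lower, beside 6.75% higher and 6.19% lower of all tested genes, and without the 4 libraries 3 higher and 1 lower, Gclm being added, beside 23.2% and 10.2%. The comparisons with control and with non-cachectic mice share the cachectic mice, so they are no repeat of each other.

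**Figure D2:**
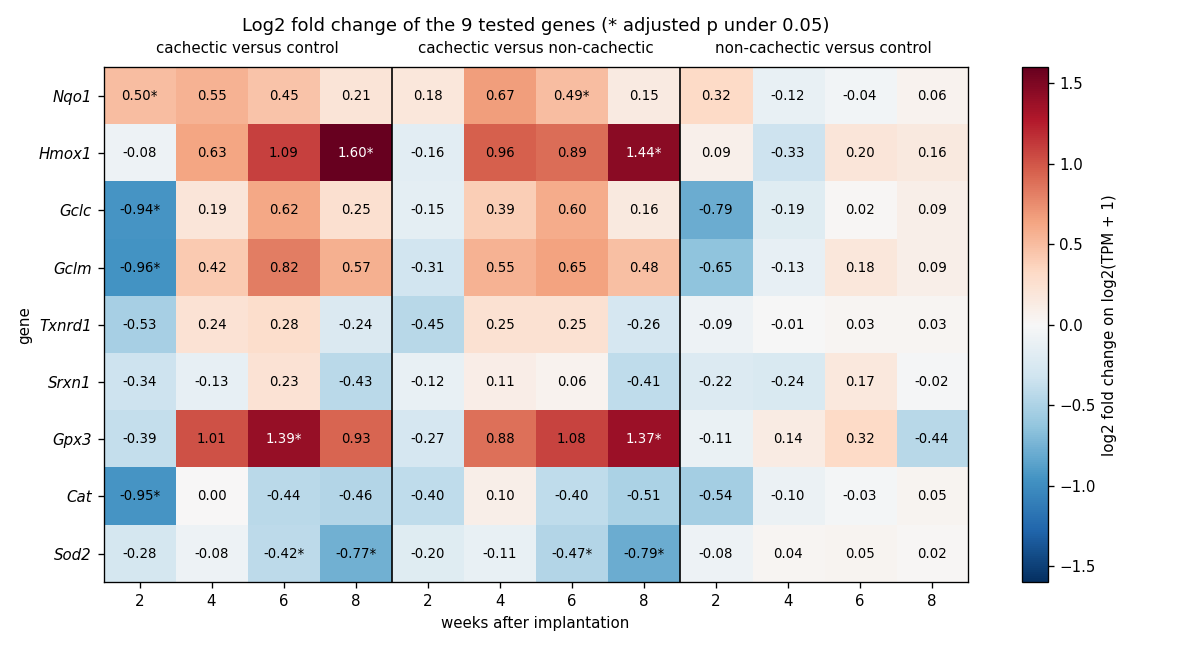
Log2 fold changes on the log2(TPM + 1) scale of the 9 tested genes (rows) in 3 comparisons at 4 time points (columns), in red for higher and blue for lower, with an asterisk for an adjusted p under 0.05. Hmox1 reaches 1.6 and Sod2 -0.77 in cachectic against control mice at 8 weeks, and no value of the non-cachectic against control comparison carries an asterisk.

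The subunits of glutamate-cysteine ligase, which makes the first step of glutathione synthesis, had similar courses. Gclc (chr9:77754535-77794485, plus strand) encodes the catalytic subunit and Gclm (chr3:122245557-122270732, plus strand) the modifier subunit. At 6 weeks Gclm measured 12.6, 10.5, 7.69, 7.57 and 10.7 TPM in cachectic mice, all above the control mice at 3.92, 5.52, 6.61, 4.30 and 5.05 TPM. Gclc measured 18.9, 15.1, 10.7, 14.9 and 14.7 TPM in cachectic mice, all above the control mice at 9.37, 8.56, 9.91, 8.88 and 9.42 TPM. Neither was called at 6 weeks, with log2 fold changes of 0.82 ± 0.29 for Gclm (adjusted p = 0.0746) and 0.62 ± 0.30 for Gclc (adjusted p = 0.226), and both were called without the 4 libraries (adjusted p = 0.00359 and 0.0229).

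At 8 weeks Gclm ran from 1.97 TPM over a median of 7.84 to 19.4 TPM in cachectic mice, and from 4.07 to 5.94 TPM in control mice. All cachectic mice but replicate 3 lay above the control range, and the log2 fold change was 0.57 ± 0.27 (adjusted p = 0.157) and 0.84 ± 0.21 without the 4 libraries (adjusted p = 0.00133). Leaving out replicate 3 alone gave an adjusted p of 0.00776. Gclc ran from 2.72 TPM over a median of 12.3 to 23.0 TPM against 7.29 to 10.1 TPM, again with replicate 3 below and the other 6 above every control mouse, and its log2 fold change was 0.25 ± 0.27 (adjusted p = 0.603) and 0.54 ± 0.20 without the 4 libraries (adjusted p = 0.0345). Gclm overlaps 2 annotated genes, Gm17494 on the other strand and the pseudogene Gm6061, with median TPM of 0.0129 and 0, and the use of strand in counting is not given in the sources used here.

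Nqo1 (chr8:107388225-107403206, minus strand) encodes a quinone reductase and is among the best known Nrf2 targets. At 4 weeks it measured 100.1, 79.1, 74.6, 72.8 and 81.7 TPM in cachectic mice, all above the control mice at 62, 47.5, 58.9, 55.9 and 51.8 TPM and the non-cachectic mice at 42.7, 42.7, 46.1, 54.2 and 72.2 TPM. At 6 weeks the cachectic mice measured 74.7, 78.6, 84.1, 73.6 and 93.5 TPM, above the control mice at 71.7, 63.1, 55.2, 61.7 and 44.8 TPM. At 8 weeks the groups overlapped, with 41.5 to 76.1 TPM in cachectic and 42.7 to 62.5 TPM in control mice. The log2 fold changes against control mice of 0.55 ± 0.16 at 4 weeks (adjusted p = 0.274) and 0.45 ± 0.16 at 6 weeks (adjusted p = 0.0700) were not called, and both were called without the 4 libraries (adjusted p = 0.0105 and 0.00465), as was the 0.30 at 8 weeks (adjusted p = 0.0414). The call against non-cachectic mice at 6 weeks was lost in each of the 10 fits without 1 mouse, with adjusted p from 0.0506 to 0.142.

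Txnrd1 (chr10:82833951-82897712, plus strand), the cytosolic thioredoxin reductase, and Srxn1 (chr2:152105516-152111376, plus strand), which restores oxidized peroxiredoxins, were not called in any of the 12 comparisons of groups, with or without the 4 libraries. With array weights Txnrd1 was called higher at 6 weeks (0.31, adjusted p = 0.0324). Between cachectic and control mice of that week array weights called 5707 of all 13578 tested genes higher. At 8 weeks Txnrd1 ran from 6.41 TPM over a median of 54.2 to 90.8 TPM in cachectic and from 43.7 to 70.7 TPM in control mice. Srxn1 ran from 3.80 TPM over a median of 17.6 to 25.2 TPM against 17.9 to 26.3 TPM. The lowest value of each was replicate 3, and the log2 fold changes of -0.24 (95% CI -0.87 to 0.40) for Txnrd1 and -0.43 (95% CI -0.93 to 0.08) for Srxn1 became 0.20 and -0.14 without the 4 libraries. These intervals do not show equal levels. Txnrd1 also overlaps 3 annotated genes (Gm38560, Gm47073 and Eid3), and the assignment of shared reads is not given in the sources used here.

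**Figure D3:**
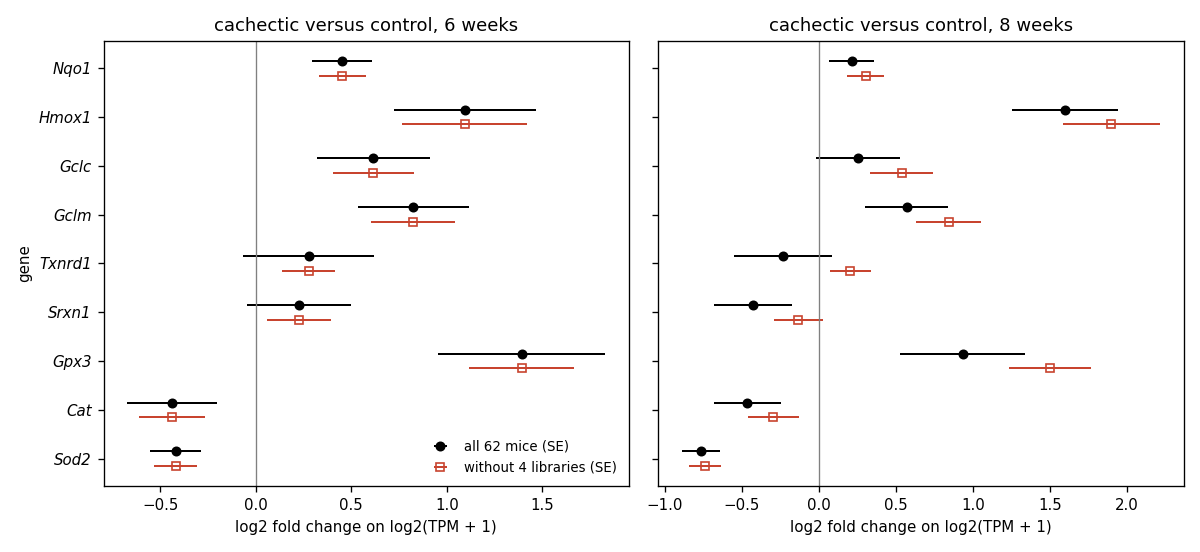
Log2 fold changes of the 9 tested genes between cachectic and control mice at 6 weeks (left) and 8 weeks (right), with SE, from all 62 mice (black circles) and without the 4 libraries with the fewest genes (red squares). At 8 weeks Gpx3 moves from 0.93 to 1.5 and Txnrd1 from -0.24 to 0.20, while Sod2 stays at -0.77 and -0.74.

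At 4 weeks limma called 0 of the 9 genes between cachectic and control mice, beside 0.0221% of all tested genes in either direction, and 2 of the 9 had an unadjusted p under 0.05 (Nqo1 and Gpx3). Those 2 were called, both higher, without the 4 libraries, where 1.85% of all tested genes were called. Dunn's test called 0 with adjusted p and 2 with unadjusted p. Of all 13578 tested genes, 728 had an unadjusted p under 0.05 with limma. Dunn's test called 0 of them with adjusted and 1790 with unadjusted p. Between cachectic and non-cachectic mice limma called 0 of the 9 at 4 weeks, beside 0.0295% of all tested genes, with 2 at an unadjusted p under 0.05 (Nqo1 and Hmox1), and Dunn's test called 0 with adjusted and 4 with unadjusted p. Over all tested genes, the counts with unadjusted p were 697 with limma and 1653 with Dunn's test. Nqo1, with a log2 fold change of 0.67 ± 0.16 (adjusted p = 0.0830), was called without the 4 libraries (adjusted p = 0.00118), beside 2.23% of all tested genes, and without non-cachectic replicate 5 alone (adjusted p = 0.0334). Cachectic replicates 2 and 4 held the highest Hmox1 (19.5 and 44.2 TPM), Gclm (10.2 and 12.4 TPM), Gclc (15 and 11.8 TPM) and Gpx3 (1646 and 765 TPM) of the cachectic mice at 4 weeks, but the highest Nqo1 was in replicate 1.

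At 2 weeks 4 of the 9 genes were called between cachectic and control mice, Nqo1 higher and Cat, Gclc and Gclm lower, beside 1.41% of all tested genes called higher and 27.8% lower. The median over all tested genes was itself shifted by -0.42, and -0.39 over the 9 genes. Cat measured 210, 181, 90.4, 63.7 and 154 TPM in cachectic mice and 147, 485, 155, 282 and 297 TPM in control mice, with a log2 fold change of -0.95 ± 0.24 (adjusted p = 0.00772). The high control mice were replicates 2, 4 and 5, and they were also the highest in Gclc, at 31.2, 17.4 and 15 TPM against 6.05 and 7.55 TPM in the other two. The low cachectic mice were replicates 3 and 4, which are libraries with few genes.

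The same 3 control mice carried the highest levels of 10 liver markers at 2 weeks, with means of 10.2, 9.01 and 8.43 on the log2(TPM + 1) scale against a median of 1.86 over all mice, and Cat, Gclc and Gclm are abundant in liver. Cachectic replicate 1 came next, with a liver mean of 7.41, Cat at 210 TPM, Gclc at 9.31 TPM and Gclm at 4.86 TPM. Over the 2-week control mice the summed liver markers ran from 4.06 to 23916 TPM, and in cachectic mice from 5.84 to 3294 TPM, with none at 0 in every mouse of a group. Limma called 0 of the 10, with 7 at an unadjusted p under 0.05 and 0 by Dunn's test. Of all 13578 tested genes, 7023 had an unadjusted p under 0.05 in that comparison, and Dunn's test with adjusted p called 0. Leaving out the 4 libraries with the highest liver markers, which are control replicates 2, 4 and 5 and cachectic replicate 5 of 6 weeks, called 0 of the 9 genes. Leaving out the 4 with few genes also called 0. Both of these fits called 0 of all 13578 tested genes, so neither could call any of the 9. Leaving out control replicate 2 alone or cachectic replicate 3 alone called 0 of the 9 each. The fit without cachectic replicate 4 kept 1 call and the fit without control replicate 5 kept 2. Counts over all tested genes are not given for these fits without 1 mouse. The losses can therefore not be set beside a loss of calls over all genes. With liver markers as a covariate 2 stayed called, Cat (-0.75, adjusted p = 0.0328) and Nqo1 (0.49, adjusted p = 0.0422). That fit called 92 of all 13578 tested genes higher and 1837 lower. Gclc and Gclm were not called in that fit (adjusted p = 0.067 and 0.0589). Beyond these fits, the part of liver in the 2-week values was not tested. Nqo1 measured 54.4, 68.4, 60.5, 49.6 and 56.4 TPM in cachectic and 34.6, 46.5, 42.3, 38.2 and 41.5 TPM in control mice, without overlap. Its log2 fold change was 0.50 ± 0.16 (adjusted p = 0.0212) and 0.55 ± 0.14 without the 4 libraries with few genes (adjusted p = 0.162). Non-cachectic mice measured 55.6, 54.8, 58.6, 66.7 and 28.1 TPM, and all but replicate 5, a library with few genes, lay above every control mouse. The control mean of 40.6 TPM was below the 55.2, 59.3 and 53.2 TPM of control mice at 4, 6 and 8 weeks.

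Between non-cachectic and control mice no gene of the 9 was called at any week. At 2 weeks limma called 0 of the 9 beside 4.43% of all tested genes, with 4 at an unadjusted p under 0.05 and 0 by Dunn's test. Of all 13578 tested genes, 1688 had an unadjusted p under 0.05 with limma in that comparison. Leaving out non-cachectic replicate 5 called 1 (Nqo1, adjusted p = 0.0194), and leaving out control replicate 1 or 3 called 1 (Gclc, lowest adjusted p = 0.018). At 4, 6 and 8 weeks it called 0 of the 9 beside 0% of all tested genes in each, with 0 at an unadjusted p under 0.05 and 0 by Dunn's test, and their 27 log2 fold changes lay between -0.44 and 0.32, both of them Gpx3. Between cachectic and non-cachectic mice at 2 weeks it called 0 of the 9 beside 0% of all tested genes, with 0 at an unadjusted p under 0.05 and 0 by Dunn's test. From 4 to 8 weeks, 0 of the 9 were called in control mice and 0 in non-cachectic mice, beside 0% of all tested genes in both, with 0 at an unadjusted p under 0.05, and Dunn's test gave 1 unadjusted call, Hmox1 in non-cachectic mice. Changes of the cachectic minus control difference between 4 and 6, 4 and 8, and 6 and 8 weeks gave 0 calls by limma among the 9 genes beside 0% of all tested genes, and Sod2 between 4 and 8 weeks was the 1 gene with an unadjusted p under 0.05. Of all tested genes, 1022 had an unadjusted p under 0.05 for the change between 4 and 8 weeks. Changes of the difference were not computed with Dunn's test.

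The genes that control Nrf2 were not called at 6 or 8 weeks with all mice. In cachectic against control mice limma called 0 of 11 at each of these weeks, with 1 and 0 at an unadjusted p under 0.05, and Dunn's test called 0 with adjusted p and 2 and 0 with unadjusted p. Of all 13578 tested genes, 2726 at 6 weeks and 3666 at 8 weeks had an unadjusted p under 0.05 with limma. Dunn's test called 0 and 1121 of them with adjusted p, and 4433 and 3256 with unadjusted p. Without the 4 libraries, 4 of 11 at 6 weeks and 6 of 11 at 8 weeks were called higher and 0 lower, beside 26.9% and 22.2% of all tested genes called higher in those fits. Nfe2l2 itself measured 59.7, 59.5, 47.9, 41.7 and 45.9 TPM in cachectic mice at 6 weeks, all above the control mice at 35.6, 28.4, 38.6, 29.7 and 34.6 TPM, with a log2 fold change of 0.59 ± 0.19 (adjusted p = 0.0502). At 8 weeks it ran from 18.1 TPM over a median of 45.2 to 64.8 TPM against 30.7 to 38.8 TPM in control mice, with replicate 3 lowest and the other 6 above the control range, and the log2 fold change was 0.32 ± 0.18 (adjusted p = 0.239) and 0.53 ± 0.12 without the 4 libraries (adjusted p = 0.000538). Bach1, the repressor, had log2 fold changes of 0.43 at 6 weeks (adjusted p = 0.386) and 0.23 at 8 weeks (adjusted p = 0.597), and 0.54 at 8 weeks without the 4 libraries (adjusted p = 0.00365). Leaving out cachectic replicate 3 alone called Nfe2l2 (adjusted p = 0.00765) and Bach1 (adjusted p = 0.0487) at 8 weeks.

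Keap1 measured 24.2, 26.2, 27.2, 24.9 and 25.1 TPM in control mice at 8 weeks and from 4.72 TPM over a median of 30.9 to 41.3 TPM in cachectic mice. Replicate 3 was the lowest and replicate 2, at 19.9 TPM, also lay below the control range, while the other 5 lay above it. Its log2 fold change of -0.06 (95% CI -0.60 to 0.48) was not called and changed sign to 0.30 without the 4 libraries (adjusted p = 0.0201). Levels of mRNA do not measure Nrf2 protein, which is set largely by degradation.

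**Figure D4:**
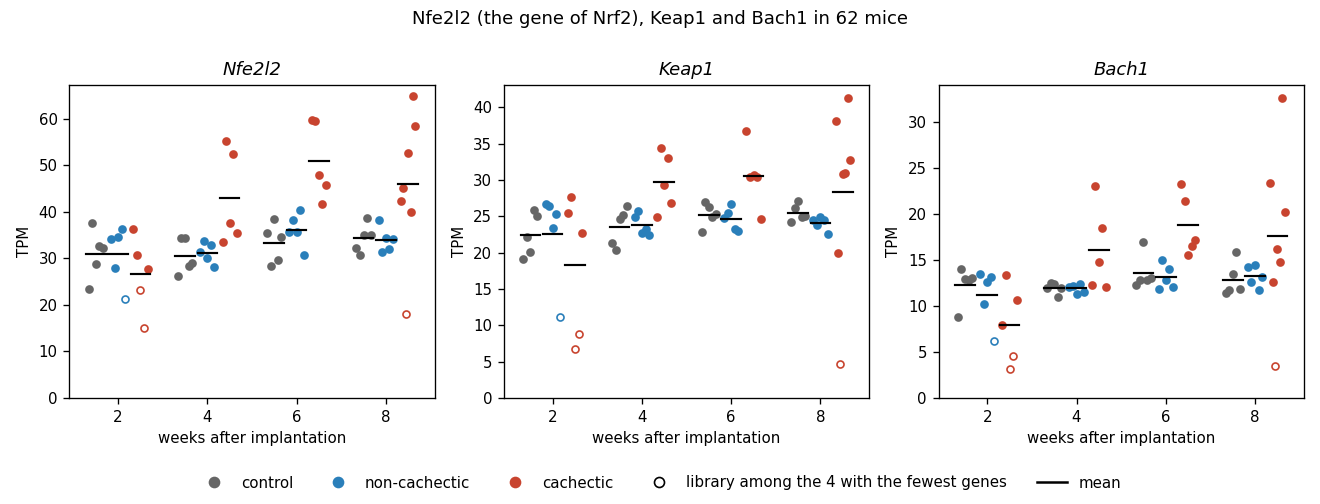
TPM of Nfe2l2, Keap1 and Bach1 in each of the 62 mice against weeks after implantation, on axes that start at 0, with the mean of each condition as a bar and open circles for the 4 libraries with the fewest genes. Nfe2l2 of the 5 cachectic mice at 6 weeks lies between 41.7 and 59.7 TPM, above all control mice of that week.

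The wider set of redox genes was read from 7 lists with 89 genes, of which 86 were tested. In cachectic against control mice at 8 weeks 13 were called higher and 3 lower, with a median log2 fold change of 0.07 against -0.09 over all genes, beside 6.65% and 8.12% of all tested genes. Without the 4 libraries 29 were called higher and 6 lower, with medians of 0.15 and 0.06, beside 22.2% and 12.4% of all tested genes. At 6 weeks 6 were called higher and 1 lower, beside 5.62% and 1.17% of all tested genes. These counts were 24 and 2 without the 4 libraries, beside 26.9% and 4.29%. The shares called higher at 6 weeks were near those of all genes. At 4 weeks limma called 0 of the 86, with 9 at an unadjusted p under 0.05, and Dunn's test called 0 with adjusted and 14 with unadjusted p. Of all 13578 tested genes, 728 had an unadjusted p under 0.05 with limma and 1790 with Dunn's test.

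Of 23 other Nrf2 targets tested, 2 rose at 8 weeks and 0 fell, a share near the 6.65% of all tested genes called higher. In the fit without the 4 libraries 9 were called higher and 1 lower, beside 22.2% and 12.4%. Gsta3, a glutathione S-transferase, went from 7.64 ± 2.40 TPM in control mice (SD, n = 5) to 24.7 ± 8.48 TPM (SD, n = 7), without overlap, with a log2 fold change of 1.55 (adjusted p = 0.0445), and the call held in 2 of 12 fits without 1 mouse. Mgst1, a membrane-bound glutathione S-transferase, went from 32.7 ± 11 to 93.4 ± 58.7 TPM (SD, n = 5 and 7), also without overlap, with a log2 fold change of 1.37 (adjusted p = 0.0207), and lost its call without control replicate 1 or 5 or cachectic replicate 3 (adjusted p up to 0.0648). Both are abundant in liver, whose markers summed to 6.69 to 2372 TPM in cachectic and 1.74 to 331 TPM in control mice at 8 weeks. Limma called 0 of these 10 markers, with 0 at an unadjusted p under 0.05 and 0 by Dunn's test, and their part was not tested.

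Among 14 tested genes of glutathione synthesis and use, 4 rose and 1 fell at 8 weeks, beside 6.65% higher and 8.12% lower of all tested genes. Without the 4 libraries 4 were called higher and 2 lower, beside 22.2% and 12.4%. Slc3a2, the partner chain of Slc7a11 and of other amino acid transporters, went from 18.1 ± 1.96 to 43.2 ± 16.2 TPM (SD, n = 5 and 7), with a log2 fold change of 1.07 (adjusted p = 0.000480), while Slc7a11 itself stayed at or below 0.0685 TPM in the same mice. Glrx3, a glutaredoxin that handles iron-sulfur clusters, went from 121 ± 7.89 to 197.5 ± 21.3 TPM (SD, n = 5 and 7), without overlap, with a log2 fold change of 0.70 (adjusted p = 4.99e-10). Ggt5, which cleaves extracellular glutathione conjugates, rose by 0.74 (adjusted p = 0.0219), a call that was lost without control replicate 1 or cachectic replicate 2 or 5 (adjusted p up to 0.0619). Gpx4, the peroxidase of lipid hydroperoxides, rose by 0.43 (adjusted p = 0.00116) and is named after its values were seen, to complete the count. Glrx5, the mitochondrial glutaredoxin, fell by 0.34 (adjusted p = 0.0446), and the call held in 3 of 12 fits without 1 mouse.

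Among 14 tested genes of the thioredoxin and peroxiredoxin system 2 rose and 2 fell, beside 6.65% higher and 8.12% lower of all tested genes. Without the 4 libraries 3 were called higher and 3 lower, beside 22.2% and 12.4%, and the share called higher was near that of all genes. Sesn1, a stress-induced sestrin, went from 41.1 ± 3.16 to 106 ± 88.9 TPM (SD, n = 5 and 7), with cachectic mice from 20.5 to 235 TPM. Its log2 fold change of 0.92 (adjusted p = 0.0247) was not called without control replicate 1 or 3 or cachectic replicate 1 or 6 (adjusted p up to 0.109). Sesn3 went the other way, from 16.6 ± 2.36 to 9.36 ± 3.80 TPM (SD, n = 5 and 7), with a log2 fold change of -0.87 (adjusted p = 0.00875). Prdx4, the peroxiredoxin of the endoplasmic reticulum, rose by 0.53 (adjusted p = 0.0337), with the call kept in 7 of 12 fits without 1 mouse. Prdx5, found in mitochondria and peroxisomes, fell by 0.23 (adjusted p = 0.0131), a call lost without control replicate 2 (adjusted p = 0.0523).

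Of 10 superoxide dismutases and oxidant sources 2 rose and 0 fell, beside 6.65% higher and 8.12% lower of all tested genes. Without the 4 libraries 4 were called higher and 0 lower, beside 22.2% and 12.4%. Sod1, the cytosolic superoxide dismutase, went from 319 ± 28.7 to 450 ± 76.3 TPM (SD, n = 5 and 7), with the lowest cachectic mouse at 353 TPM above the highest control mouse at 349.8 TPM, and a log2 fold change of 0.48 ± 0.13 (adjusted p = 0.00632). Sod1 thus rose where Sod2 fell. Nox4, a NADPH oxidase that makes hydrogen peroxide, went from 1.19 ± 0.50 to 2.79 ± 1.49 TPM (SD, n = 5 and 7), with a log2 fold change of 0.72 (adjusted p = 0.00628), at levels where the scale understates a change.

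Of 6 genes of heme breakdown and scavenging 1 rose, Cd163, described above beside Hmox1, and 0 fell. The last list held 8 genes that encode selenoproteins, the class to which Gpx3 and Txnrd1 belong, or help to make them. Of these 8 genes 2 rose and 0 fell. The heme and selenoprotein counts were the same without the 4 libraries. Beside them, 6.65% of all tested genes were called higher and 8.12% lower, and 22.2% and 12.4% without the 4 libraries. The 2 selenoprotein genes that rose were Selenok (Selk in the table), with a log2 fold change of 0.48 ± 0.08 (adjusted p = 8.65e-06), and Selenos (Vimp in the table), with 0.46 ± 0.10 (adjusted p = 0.00116). Both encode selenoproteins of the endoplasmic reticulum membrane.

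**Figure D5:**
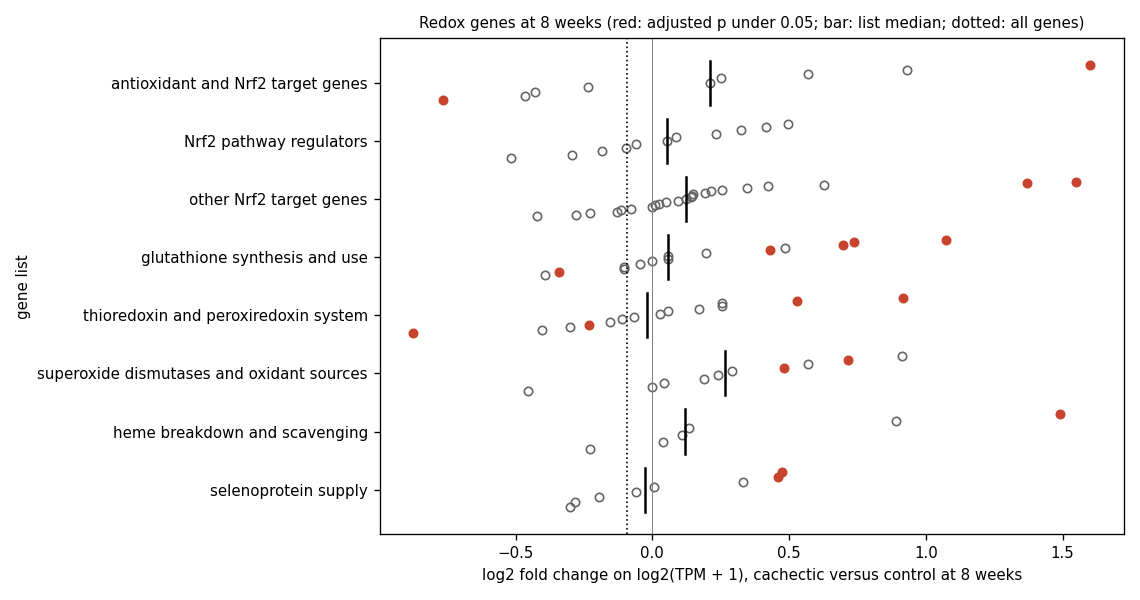
Log2 fold changes on the log2(TPM + 1) scale between cachectic and control mice at 8 weeks for the 9 tested genes (top row) and the 86 tested genes of 7 other redox lists, each circle 1 gene, filled red for an adjusted p under 0.05, with the list median as a bar and the median of all genes (-0.09) dotted. Hmox1 at 1.6 and Gsta3 at 1.55 are the highest values, and Sesn3 at -0.87 is the lowest.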

How the data were processed

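RNA was measured in 1 diaphragm library per mouse. The authors trimmed and filtered reads, aligned them to GRCm38 (mm10) and quantified genes with the RNA-Seq Analysis tool of CLC Genomics Workbench, and they deposited TPM values for each gene and mouse. The library kit is given as TruSeq stranded mRNA in the labels and as another TruSeq kit in the methods. The annotation release, use of strand and handling of multi-mapping reads are not given in the sources used here. Depth in reads is unknown, since TPM values hold no counts, so no counting error is given. The authors' own Kruskal-Wallis and Dunn's test results were not used, and Dunn's test was run here as an alternative.

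Values were used as log2(TPM + 1), for 13578 genes that reached 1 TPM in 5 or more mice, of 23900 above 0 in any mouse. limma 3.58.1 (R 4.3.3) fitted the 12 condition means over 62 mice with a mean-dependent prior spread, with Benjamini-Hochberg adjusted p over all tested genes in each comparison. The script was tested on simulated data. Nothing in the labels ties mice with the same replicate number, and 18 of 60 same-numbered pairs had deviations correlated above 0.1 (-0.633 to 0.387), so numbers were not taken to pair mice. The 10 genes and all lists were chosen with earlier results of these data known. All 10 were named. From 7 other redox lists, up to 3 called genes with the largest positive and up to 3 with the largest negative change at 8 weeks in cachectic against control mice were named, besides Nfe2l2, Keap1 and Bach1. Selenoprotein genes appear in the table under older symbols, matched through RefSeq synonyms. Gene positions are from GENCODE M21 on GRCm38. Alternatives were a pseudocount of 0.1, no filter, median-ratio scaling, quantile normalization, array weights, a replicate block, Dunn's test, fits of the groups compared, fits without 4 libraries with few genes or 4 with high liver markers, a liver covariate and fits without each mouse. Figures used matplotlib 3.10.9 in Python 3.11.15.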

Additional observations from a re-analysis of the deposited data

Results flagged for a closer look

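For each of the 10 genes and 12 conditions, the mouse farthest from its group was examined by the gap to its nearest neighbour relative to the range of the group, against the 95% critical value of Dixon's test. Of 120 groups, 8 held such a mouse, and chance alone gives about 1 in 20.

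Hmox1 of control replicate 1 at 2 weeks was low, at 4.83 TPM against 7.51 to 8.34 TPM in the other control mice. Gpx3 of cachectic replicate 2 at 4 weeks was high, at 1646 TPM against 439 to 765 TPM in the others. Srxn1 of non-cachectic replicate 1 at 8 weeks was high, at 28.9 TPM against 17.6 to 19.6 TPM. Txnrd1 of non-cachectic replicate 5 at 2 weeks, among the 4 libraries with the fewest genes, was low, at 21.5 TPM against 53.1 to 59.1 TPM.

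Slc7a11 had such a mouse in 4 groups, at levels far below 1 TPM, where a value can stand for few reads. These were 0.135 TPM in cachectic replicate 1 at 2 weeks, 0.0813 TPM in non-cachectic replicate 5 at 2 weeks, 0.0732 TPM in cachectic replicate 2 at 6 weeks and 0.0425 TPM in non-cachectic replicate 4 at 4 weeks. No change of the cachectic minus control difference between weeks was called with all mice.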

How the results depend on the processing

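Of the 9 tested genes, the number called changed by more than 1.5 times with the settings below, and the cause of each change was not tested. Between cachectic and control mice at 2 weeks, 4 were called, against 2 with median-ratio scaling, quantile normalization or a liver covariate and 0 with array weights, Dunn's test (adjusted p), a fit of the groups compared alone, or without the 4 libraries with the fewest genes or the 4 with the highest liver markers. Over all 13578 tested genes, 3973 were called at 2 weeks. Median-ratio scaling called 2386, quantile normalization 2176, the liver covariate 1929, array weights 153, and each other setting just named 0. At 4 weeks 0 of the 9 were called, against 1 with array weights or the groups alone and 2 with Dunn's test (unadjusted p) or without the 4 libraries with the fewest genes. Over all tested genes, 3 were called at 4 weeks. Array weights called 1069, the groups alone 50, Dunn's test (unadjusted p) 1790 and the fit without those 4 libraries 251. At 6 weeks 2 of the 9 were called, against 0 without a filter on low values or with Dunn's test (adjusted p), 1 with the liver covariate, 4 with median-ratio scaling or quantile normalization, 6 with the groups alone, 7 with Dunn's test (unadjusted p) or without the 4 libraries with the fewest genes, and 8 with array weights. Over all tested genes, 922 were called, against 893 of 23900 without a filter, 0 with Dunn's test (adjusted p) and 867 with the liver covariate. Median-ratio scaling called 1012, quantile normalization 1259 and the groups alone 4030. Dunn's test (unadjusted p) called 4433, the fit without those 4 libraries 4233 and array weights 6565. At 8 weeks 2 of the 9 were called, against 1 with Dunn's test (adjusted p) or the groups alone, 4 with median-ratio scaling or quantile normalization, and 6 with array weights or without the 4 libraries with the fewest genes. Over all tested genes, 2005 were called, against 1121 with Dunn's test (adjusted p) and 552 with the groups alone. Median-ratio scaling called 3271, quantile normalization 3431, array weights 4921 and the fit without those 4 libraries 4697.

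Between cachectic and non-cachectic mice at 4 weeks 0 were called, against 1 without the 4 libraries with the fewest genes, 2 with array weights and 4 with Dunn's test (unadjusted p). At 6 weeks 2 were called, against 0 with Dunn's test (adjusted p), 1 with a pseudocount of 0.1, no filter, the liver covariate or without the 4 libraries with the highest liver markers, 4 with Dunn's test (unadjusted p), 6 with the groups alone or without the 4 libraries with the fewest genes, and 7 with array weights. At 8 weeks 3 were called, against 1 with Dunn's test (adjusted p) or the groups alone and 5 with quantile normalization or array weights. Non-cachectic against control mice at 2 weeks gave 0, against 1 with quantile normalization or without the 4 libraries with the fewest genes and 4 with array weights. The change of the cachectic minus control difference gave 0 throughout, except 2 between 4 and 6 weeks and 2 between 4 and 8 weeks with array weights, and 1 between 4 and 8 weeks without the 4 libraries with the fewest genes. Non-cachectic mice at 8 against 4 weeks gave 0, and 1 with Dunn's test (unadjusted p).

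Mice with the same replicate number were not shown to be paired. A replicate block, which leaves the cachectic replicates 6 and 7 at 8 weeks without partners, called 4 instead of 2 between cachectic and control mice at 6 weeks and 1 instead of 2 between cachectic and non-cachectic mice at 6 weeks, and left the other counts within 1.5 times. Over all tested genes the block called 931 and 784 in those comparisons of 6 weeks.

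Leaving out 1 mouse at a time, the number called between cachectic and control mice ranged from 0 to 5 at 2 weeks, 0 to 2 at 6 weeks and 2 to 4 at 8 weeks, and between cachectic and non-cachectic mice from 0 to 1 at 4 weeks, 0 to 1 at 6 weeks and 2 to 4 at 8 weeks. Both counts of 4 at 8 weeks came without cachectic replicate 3. Non-cachectic against control mice at 2 weeks ranged from 0 to 1, and the other counts stayed at 0. Counts over all tested genes are not given for the fits without 1 mouse, so these counts stand without that reference. Among the log2 fold changes of named genes, that of Keap1 at 8 weeks in cachectic against control mice turned from -0.06, not called, to 0.31 with array weights and 0.30 without the 4 libraries with the fewest genes, both called. A further 179 sign changes among 4086 values were in values called in neither setting.

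With median-ratio scaling the median over all genes moved from -0.42 to -0.06 at 2 weeks and from 0.17 to 0.01 at 6 weeks in cachectic against control mice, and the genes called at 6 weeks from 763 higher and 159 lower to 467 and 545. Over all genes, 922 were called at 6 weeks and 2005 at 8 weeks in that comparison, against 6565 and 4921 with array weights, 4233 and 4697 without the 4 libraries with the fewest genes, 4030 and 552 with the groups alone, and 0 and 1121 with Dunn's test (adjusted p). The array weights of single libraries ran from 1.49e-09 (cachectic replicate 5 at 2 weeks) to 10.98 (non-cachectic replicate 3 at 2 weeks). Depth in reads is unknown, so the counting error of Slc7a11 and other genes near 0 cannot be given.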
